A study of Mus musculus with 6 samples.

Results

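The day 7 libraries of 2 knockdown lines of the mouse mesenchymal cell line C3H10T1/2, shMLL1 and shNFIB, were compared directly with each other, gene by gene and without the control library. Genes with 20 or more counts in at least 1 of the 2 libraries were compared, which were 14865 of the 55401 genes in the count table and of the 29043 genes with any count, and 12244 of them were protein-coding. RNA was taken from whole cultures, in which fewer cells of a type and less RNA per cell cannot be told apart. The comparison asks which transcripts were low at day 7 in one knockdown line and not in the other.

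C3H10T1/2 cells grow as multipotent mesenchymal cells and can form bone, fat or cartilage cells in culture. The study made 3 lines of them that carry a short hairpin RNA, which is a control in shControl, is directed at Nfib in shNFIB and at Kmt2a, which encodes MLL1, in shMLL1, and sequenced each at day 0, untreated, and at day 7 of osteogenic differentiation. The osteogenic medium of all day 7 cells, shControl included, contained dexamethasone (0.1 µM), ascorbic acid 2-phosphate (100 µg/ml) and β-glycerophosphate (20 mM), and a hairpin lowers its target's transcript without deleting the gene. Each of the 6 conditions is 1 library of 1 hairpin line, so no difference between the 2 day 7 libraries has a replicate check, and a gene that differs between them compares those libraries and not the conditions.

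NFIB belongs to the nuclear factor I family of transcription factors, which bind DNA as dimers at palindromes of the motif TTGGC and act in the development of lung, brain, muscle and cartilage. MLL1 is a histone methyltransferase that places methyl groups on lysine 4 of histone H3 at promoters, in a complex with WDR5, RBBP5, ASH2L, DPY30 and menin, and is best known for keeping Hox genes active. Bone formation from mesenchymal cells runs through the transcription factors RUNX2, DLX5 and SP7 to matrix proteins and to ALPL, the alkaline phosphatase that frees phosphate for mineral.

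Total counts were 30406559 in shNFIB and 21608680 in shMLL1 at day 7, and from 29086652 to 34774066 in the other 4 libraries. Levels are given as CPM, counts relative to the size of the library after TMM scaling (a trimmed mean of log ratios that aligns the bulk of the genes) across all 6 libraries. CPM are not divided by gene length and so compare libraries and not genes. A count of 20 stood for 0.677 CPM in shNFIB and 0.820 CPM in shMLL1, and a count of 0 allows up to 3 counts, 0.101 and 0.123 CPM. A gene was called past 2-fold where the ratio of its scaled counts was over 2 and the exact Clopper-Pearson 95% interval of the ratio did not hold 1. These intervals, printed in parentheses after a fold, cover counting error only. Of the mesenchymal markers, 11 of 12 were members, while of the markers of other cell types 1 of 8 macrophage, 2 of 8 endothelial, 2 of 8 neural and none of 8 epithelial or 8 skeletal muscle genes were members.

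At day 7 each hairpin target was past 2-fold lower in its own line than in the other. Nfib (GRCm38 chromosome 4, 82290173 to 82705750) was at 8.15 CPM in shNFIB and 72.7 CPM in shMLL1 at day 7, an 8.92-fold difference (7.79 to 10.2). Kmt2a (chromosome 9, 44803355 to 44881296) was at 94.0 CPM in shNFIB and 34.8 CPM in shMLL1, a 2.70-fold difference (2.50 to 2.92). In shControl they were at 83.5 and 66.3 CPM, so that Kmt2a in shMLL1 was within 2-fold of control and only Nfib was lost in its line by that measure. At day 0 Nfib was at 35.3 CPM in shNFIB, 65.5 in shMLL1 and 116 in shControl, not past 2-fold between the knockdown lines, and Kmt2a was at 86.5, 30.9 and 74.7 CPM, past 2-fold lower in shMLL1. Over both days, the line difference was a log2 ratio of 2.02 for Nfib (SE 0.494, adjusted p = 0.121) and -1.38 for Kmt2a (SE 0.227, adjusted p = 0.0561) by the quasi-likelihood test of edgeR, adjusted after Benjamini-Hochberg, which neither passed. The other NFI genes, Nfia, Nfic and Nfix, had log2 ratios of -0.25, 0.66 and -0.21, and none was past 2-fold.

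Between the lines at day 7, 1727 genes, 11.6% of the genes compared, were past 2-fold lower in shNFIB, and 1293 genes, 8.70%, were past 2-fold lower in shMLL1. The genes lower in shNFIB were mostly at low levels and the genes lower in shMLL1 at higher ones, with a median CPM in the higher library of 3.07 and 28.2, and 62 and 346 genes over 100 CPM. The whole interval lay past 2-fold for 790 genes (5.31%) lower in shNFIB and 815 genes (5.48%) lower in shMLL1, so the larger number lower in shNFIB was not present among the genes that counting error cannot bring under the fold. Past 4-fold, 501 genes were lower in shNFIB and 309 genes in shMLL1, and past 16-fold 80 and 46. In between, 58.3% of the genes compared were within 1.5-fold. With the libraries scaled by their total count alone, the median log2 ratio of all members moved by 0.22 to 0.18 and the split became 2353 lower in shNFIB and 852 lower in shMLL1. The genes nearest to the threshold had absolute log2 ratios of 1.00003 inside it and 0.999986 outside it, and 125 members stood at the minimum of 20 counts while 113 genes at 19 counts were left out.

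**Figure D1:**
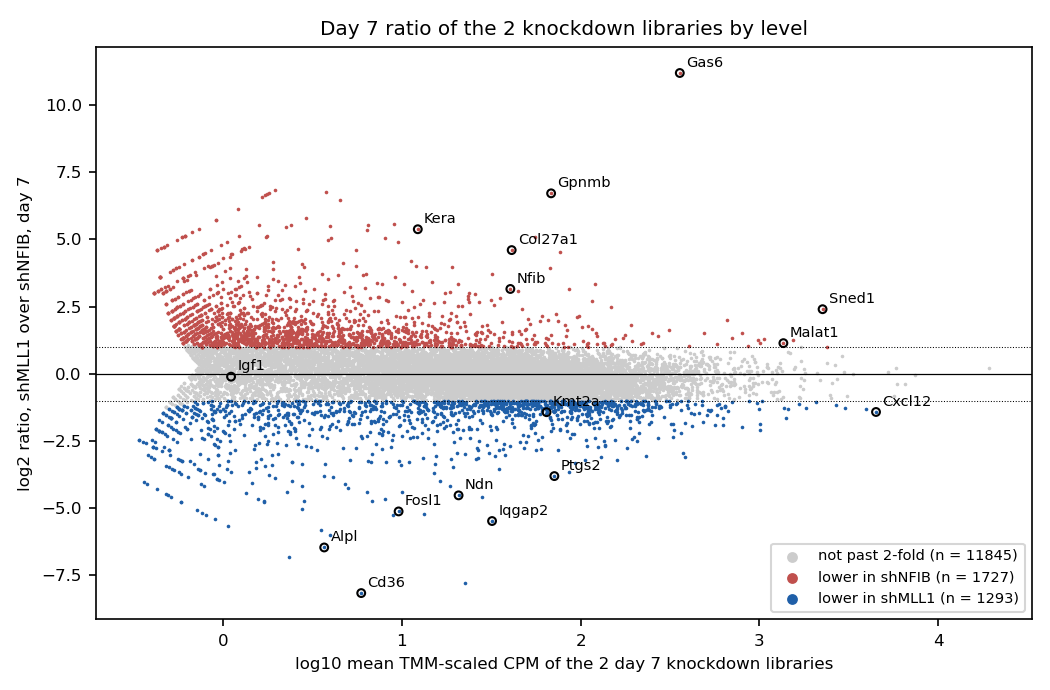
Each point is 1 of the 14865 genes compared, with the log10 mean CPM of the 2 day 7 knockdown libraries on the x axis and the log2 ratio of shMLL1 over shNFIB on the y axis. Red points (1727 genes) were past 2-fold lower in shNFIB and lie mainly to the left, blue points (1293 genes) were past 2-fold lower in shMLL1 and reach further to the right, and dotted lines mark 2-fold.

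The largest ratio among all genes lower in shNFIB was that of Gas6. Gas6, the ligand of the TYRO3, AXL and MERTK receptor tyrosine kinases, was nearly absent from this line, with 9 counts against 17486 in shMLL1 and 22101 in shControl, a 2354-fold difference (1239.5 to 5148), and it was low there already at day 0, with 2 counts against 359. Over both days its log2 ratio was 10.5 (SE 0.732, adjusted p = 0.0109, quasi-likelihood test of edgeR, adjusted after Benjamini-Hochberg); Tmem255b lies over part of it on the other strand. Gpnmb, a transmembrane glycoprotein also called osteoactivin, was at 1.29 CPM in shNFIB, 135 CPM in shMLL1 and 12.3 CPM in shControl, a 105-fold difference (76.6 to 149), so that it was both below control in one line and above control in the other. Aspg, an asparaginase-related enzyme, was at 3.18 CPM in shNFIB against 109 in shMLL1 and 69.0 in shControl, a 34.1-fold difference (27.8 to 42.4). Over both days the adjusted p values were 0.0168 for Gpnmb and 0.0252 for Aspg in the same edgeR test with Benjamini-Hochberg adjustment. The fit behind the p values over both days, here and below, includes these day 7 libraries. It takes the 2 days of a line in place of replicates. Such a p value is therefore no separate check of a gene picked by its day 7 ratio.

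Among protein-coding genes with at least 200 counts in the higher and 10 in the lower library, which leaves out Gas6, the 15 with the largest ratios lower in shNFIB ranged from 13.2-fold to 105-fold. Of these, 4 were within 2-fold of control in shMLL1 and lost in shNFIB alone, 6 were near control in shNFIB and gained in shMLL1 alone, 4 were both, and 1 was below control in both lines. The losses were Aspg, Hpca, Col27a1 and Gpm6b. Hpca, a neuronal calcium sensor, was at 0.609 CPM in shNFIB, 18.4 in shMLL1 and 23.4 in shControl. Col27a1, a fibrillar collagen chain of cartilage, was at 3.25 CPM, 79.0 CPM and 49.8 CPM in the same order, a 24.3-fold difference (19.8 to 30.2). Gpm6b, a membrane protein of the proteolipid family, was at 4.47, 59.1 and 118 CPM. In these genes shMLL1 and shControl lay within 2-fold of each other and shNFIB over 10-fold below both. Gpm6b in shMLL1 was only just within 2-fold of control, at a log2 ratio of -0.997.

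The gains in shMLL1 were Kera, Mettl21e, Serpina3c, Ces1d, Tspan13 and Orm3. Kera, the corneal proteoglycan keratocan, was at 0.575 CPM in shNFIB and 0.590 CPM in shControl but at 24.0 CPM in shMLL1. Orm3, of the orosomucoid acute-phase family, was at 8.32 CPM in shNFIB, 8.43 in shControl and 127 in shMLL1. These genes separate the lines at day 7 without a loss in shNFIB, and the direct ratio alone does not show which of the 2 lines moved. Serpina3c, Ces1d and Orm3 have close copies in the genome, between which the counting could split reads. Wfdc18, a secreted protein with a four-disulfide core, was below control in both lines, at 1.39 CPM in shNFIB and 22.6 CPM in shMLL1 against 69.6 CPM in shControl. Aim2, the sensor of cytosolic DNA, was at 1.62 CPM in shNFIB, 25.7 CPM in shMLL1 and 10.1 CPM in shControl (adjusted p = 0.0168 over both days in the quasi-likelihood test of edgeR, adjusted after Benjamini-Hochberg).

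A further 31 members had no count at all in shNFIB at day 7. Among protein-coding genes with at most 3 counts there, Kcnt1, a sodium-activated potassium channel, had 2 counts in shNFIB, 181 in shMLL1 and 163 in shControl, a 109.6-fold difference (29.9 to 912). Negr1, a neuronal cell adhesion molecule, had 0 counts in shNFIB, 110 in shMLL1 and 154 in shControl and was at least 44.4-fold lower in shNFIB than in shMLL1 against a floor of 3 counts. Pax3, a transcription factor of neural crest and muscle precursors, had 1, 94 and 94 counts in the same order, a 114-fold difference (19.9 to 4545). All 3 were lost in shNFIB alone, with shMLL1 within 2-fold of control. The other 2 of the 5 with the highest counts, Il17rb and Ppp1r26, were lost in shNFIB and also gained in shMLL1. Their log2 ratios of shMLL1 to control were 1.27 and 2.10.

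At the other end of the range, the genes with the highest CPM among those lower in shNFIB differed less. Sned1, an extracellular matrix glycoprotein, was at 717 CPM in shNFIB, 3792 CPM in shMLL1 and 745 CPM in shControl, a 5.29-fold difference (5.21 to 5.37). Adamts1, a secreted protease that cleaves aggrecan and versican, was at 614, 1493 and 345 CPM in that order, a 2.43-fold difference (2.39 to 2.47). Malat1, a nuclear noncoding RNA, was at 850.2, 1872 and 937 CPM, a 2.2-fold difference (2.17 to 2.24). In these 3 genes shMLL1 stood above both other libraries. Rnase4, a secreted ribonuclease whose first exon is shared with Ang, was instead low in shNFIB alone, at 908 CPM against 2176 in shMLL1 and 2497 in shControl, a 2.40-fold difference (2.36 to 2.43).

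Among the protein-coding genes lower in shMLL1 with at least 10 counts there and 200 in shNFIB, the largest ratio was that of Iqgap2. This scaffold protein of the cytoskeleton was at 1.39 CPM in shMLL1, 62.5 CPM in shNFIB and 117 CPM in shControl, a 44.8-fold difference (32.0 to 65.0). Fosl1, the FRA-1 subunit of the AP-1 transcription factor and a regulator of bone matrix genes, was at 0.533 CPM in shMLL1, 18.6 CPM in shNFIB and 1.61 CPM in shControl, a 35-fold difference (20.3 to 66.1). Ndn, the imprinted growth suppressor necdin, was at 1.72, 39.8 and 9.91 CPM in that order, a 23.1-fold difference (17.0 to 32.2), with a log2 ratio of -4.76 over both days (SE 0.332, adjusted p = 0.0109, quasi-likelihood test of edgeR, adjusted after Benjamini-Hochberg). Fosl1 and Ndn were each over 2-fold below control in shMLL1 and over 2-fold above it in shNFIB.

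That double displacement was the most frequent pattern among the 15 largest ratios lower in shMLL1 of protein-coding genes within the same count limits, from 12.9-fold to 44.8-fold. It held for 9 of the 15, while 4 were gained in shNFIB alone and 2, Iqgap2 and Olfml1, were lost in shMLL1 alone. Picking the largest ratios favours genes displaced on both sides of control. Over all 1293 genes lower in shMLL1 the pattern held for 74 (5.72%). Chac1, which degrades glutathione, was at 0.902 CPM in shMLL1, 19.1 CPM in shNFIB and 3.54 CPM in shControl. Dusp4, a phosphatase of MAP kinases, was at 1.93, 30.8 and 5.25 CPM, and Ptgir, the prostacyclin receptor, at 0.697, 25.8 and 6.13 CPM. The gains in shNFIB were Dpyd, Mmp13, Tgtp2 and Ptgs2. Dpyd, the first enzyme of pyrimidine breakdown, was at 0.451 CPM in shMLL1 and 0.459 CPM in shControl and at 17.4 CPM in shNFIB. Ptgs2, the inducible cyclooxygenase, was at 9.47 CPM in shMLL1, 6.76 in shControl and 133 in shNFIB, a 14.1-fold difference (12.3 to 16.1). For these 4, shMLL1 was within 2-fold of shControl, and shNFIB alone stood apart.

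In shMLL1 at day 7, 26 members had no count. Alpl, the alkaline phosphatase of mineralizing cells, had 2 counts in shMLL1, 215 in shNFIB and 111 in shControl, an 88.7-fold difference (24.3 to 737), with an adjusted p of 0.0350 over both days by the quasi-likelihood test of edgeR, adjusted after Benjamini-Hochberg. Cd36, the fatty acid translocase, had 1 count in shMLL1, 349 in shNFIB and 89 in shControl, a 288-fold difference (51.4 to 11412). Ret, the receptor tyrosine kinase of GDNF family ligands, had 0 counts in shMLL1 and 100 in shNFIB, with 12 in shControl, and was at least 27.5-fold lower in shMLL1 against the floor of 3 counts. Khdrbs3, an RNA-binding protein, had 1 count in shMLL1, 137 in shNFIB and 17 in shControl, a 113-fold difference (20.0 to 4499). Heph, a copper-dependent ferroxidase, had 5 counts against 1329 in shNFIB and 38 in shControl, a 219-fold difference (93.8 to 677), and Maob, monoamine oxidase B, was at 5.49 CPM against 64.1 in shNFIB and 8.27 in shControl. Khdrbs3, Heph and Maob were past 2-fold lower in shMLL1 at day 0 too, with adjusted p values of 0.0113, 0.0161 and 0.0113 over both days in the same edgeR test with Benjamini-Hochberg adjustment. Ret and Alpl were also past 2-fold lower in shMLL1 at day 0. Ret had 7 counts there against 488 in shNFIB, and Alpl 0 against 8. Cd36 was not past 2-fold at day 0.

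Abundant transcripts were also lower in shMLL1. Cxcl12, the chemokine that retains haematopoietic cells in marrow, was at 2435 CPM in shMLL1, 6539 CPM in shNFIB and 6781 CPM in shControl, a 2.69-fold difference (2.66 to 2.71). Ftl1, the ferritin light chain, was at 2267, 5633 and 4608 CPM in that order, a 2.48-fold difference (2.46 to 2.51). Both were lost in shMLL1 alone, though Ftl1 only just passed 2-fold below control, at a log2 ratio of -1.02. Fn1, fibronectin, was at 1339.8 CPM in shMLL1, 2786 in shNFIB and 747 in shControl, a 2.08-fold difference (2.05 to 2.11). Ctla2a, a protease inhibitor with a close copy in the genome, was at 1766, 4268 and 1285 CPM, and Timp2, an inhibitor of metalloproteases, at 1642, 3692 and 2136 CPM. Fn1 and Ctla2a were gained in shNFIB alone, and for Timp2 the control lay between the lines within 2-fold of each. With library size alone neither Fn1 (log2 ratio of -0.84) nor Timp2 (-0.95) was past 2-fold.

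**Figure D2:**
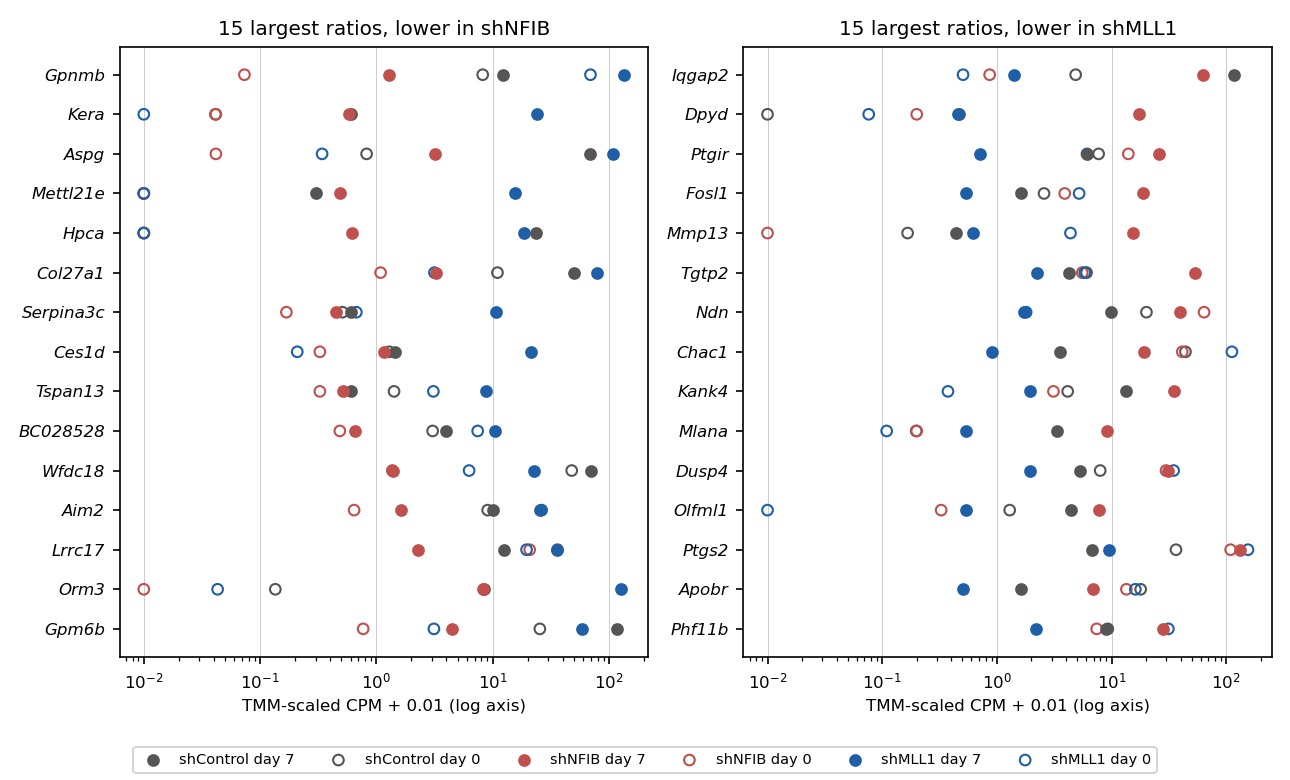
The x axis gives the TMM-scaled CPM plus 0.01 on a log scale for the 15 protein-coding genes with the largest day 7 ratio in each direction, with filled points for day 7 and open points for day 0. In the left panel the red shNFIB points lie left of the blue shMLL1 points, in the right panel the blue points lie left, and the grey shControl point is near the higher line for Aspg or Iqgap2 and near the lower one for Orm3 or Dpyd.

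The shControl library at day 7 was used to place each difference relative to control, as a loss, a gain or neither. Ratios to control were taken without a condition on the interval, with counts under 3 set to 3. Of the 1727 genes lower in shNFIB, 675 (39.1%) were lost in shNFIB alone. That is, they were over 2-fold below control there and within 2-fold of control in shMLL1. Of the 1293 genes lower in shMLL1, 229 (17.7%) were lost in shMLL1 alone. Gains in the higher line made up 405 (23.5%) of the genes lower in shNFIB and 477 (36.9%) of those lower in shMLL1. For 435 and 447 genes the control lay between the lines within 2-fold of each, for 89 and 74 the lower line was below and the higher line above control, for 58 and 20 both lines were below it and for 65 and 46 both were above it. Among protein-coding genes the losses in one line were 424 for shNFIB and 183 for shMLL1. The 3 ratios of a gene share libraries, so these counts describe where the control stood and are no test.

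Counted from the control, 1343 genes (9.03%) were over 2-fold lower in shNFIB and 655 (4.41%) in shMLL1, and 230 were lower in both. Those 230 were 17.1% of the first list and 35.1% of the second. Genes under 20 counts in both knockdown libraries were not compared, so shared losses down to that level are missing from the 230. Losses in 1 line have no such limit where the other line stays high, so both shares are lower bounds on the overlap. Of the 230, 152 did not differ past 2-fold between the knockdown lines, 58 were lower still in shNFIB and 20 lower still in shMLL1. Igf1, insulin-like growth factor 1, is one of the 152, at 1.15 CPM in shNFIB and 1.07 CPM in shMLL1 against 88.3 CPM in shControl, and Runx2, the master regulator of osteoblasts, is another, at 30.4 and 35.3 CPM against 117. A further 349 genes were over 2-fold below control in shNFIB and not in shMLL1, and 122 in the reverse case, by the ratio alone. In all of these the 2 knockdown libraries were not past 2-fold apart. Those genes cross the threshold in one line only, without a difference between the lines past the fold. Of the 675 genes lost in shNFIB alone, 419 (62.1%) were over 2-fold higher in shControl at day 7 than at day 0, as were 60 of the 229 (26.2%) lost in shMLL1 alone and 2997 of all members (20.2%). The first 2 shares use the control library on both sides, which selects genes high in it, and are a description.

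**Figure D3:**
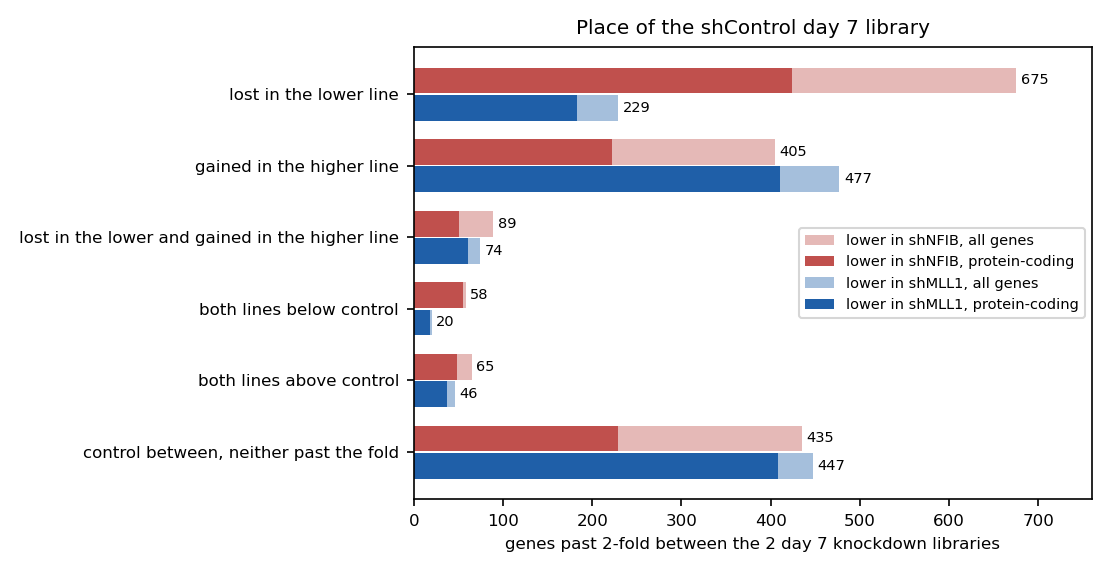
Bars give the number of genes past 2-fold between the 2 day 7 knockdown libraries by the place of the shControl day 7 library, in red for genes lower in shNFIB and in blue for genes lower in shMLL1, with the protein-coding part in the darker shade. Losses in the lower line were 675 genes for shNFIB and 229 for shMLL1, and gains in the higher line 405 and 477.

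The day 0 libraries of the same lines, which the comparison did not use, show how far each difference was already there before differentiation. At day 0, 1292 of the members (8.69%) were past 2-fold lower in shNFIB and 1676 (11.3%) lower in shMLL1. Of the 1727 genes lower in shNFIB at day 7, 395 (22.9%) were past 2-fold the same way at day 0, 110 (6.37%) the opposite way and 1222 neither. Of the 1293 genes lower in shMLL1 at day 7, 457 (35.3%) were past 2-fold the same way, 113 (8.74%) the opposite way and 723 neither. Both same-way shares stood above the day 0 shares of all members, and most genes of both sets were not past 2-fold at day 0. Genes with too few day 0 counts for a call are among these. Of all members, 205 had at most 3 counts in both day 0 libraries. Across the 14660 members with over 3 counts in a day 0 library, Pearson's r of the 2 days' log2 ratios was 0.353 and Spearman's rho 0.336, over genes, which are not independent replicates. Hpca had 0 counts in each of the 3 day 0 libraries, and Aspg was at 0.0317 CPM in shNFIB, 0.331 in shMLL1 and 0.814 in shControl there, so both were present at their day 7 levels in osteogenic medium only.

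With the 2 days of a line standing in for replicates, edgeR's quasi-likelihood fit with line and day as terms could test the line difference at 2 residual degrees of freedom. After Benjamini-Hochberg adjustment over 16742 genes, 39 genes (0.233%) were lower in shNFIB and 50 genes (0.299%) in shMLL1, while 3181 had an unadjusted p under 0.05. Of these 89 genes 88 were members, and all 88 were past 2-fold at day 7 in the direction of the fit. The fit includes the day 7 libraries, so that agreement was largely set in advance and is no separate support. Those lower in shNFIB included Gas6, Gpnmb, Aim2, Aspg, Negr1, Sh3tc2 (adjusted p = 0.0216) and Klf15 (0.0465), and those lower in shMLL1 Ndn, Thy1 (0.0126), Alpl, Ret (0.0280), Pparg (0.0252), Six2 (0.0264), Smad6 (0.0400), Alcam (0.0350) and Col8a2 (0.0400), all by edgeR's quasi-likelihood test. By the place of the control at day 7, 17 of the 39 were lost in shNFIB alone and 8 gained in shMLL1 alone, and 15 of the 50 were lost in shMLL1 alone and 18 gained in shNFIB alone. A difference present at 1 day counts as error in this fit. The counts rest on few libraries, since they were 832 lower in shNFIB and 796 lower in shMLL1 without shMLL1 at day 7, 301 and 493 without shMLL1 at day 0, 176 and 133 without shNFIB at day 7, and 0 and 0 without the day term, where 726 genes had an unadjusted p under 0.05 and DESeq2's test called 443 and 705 in the design with it.

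**Figure D4:**
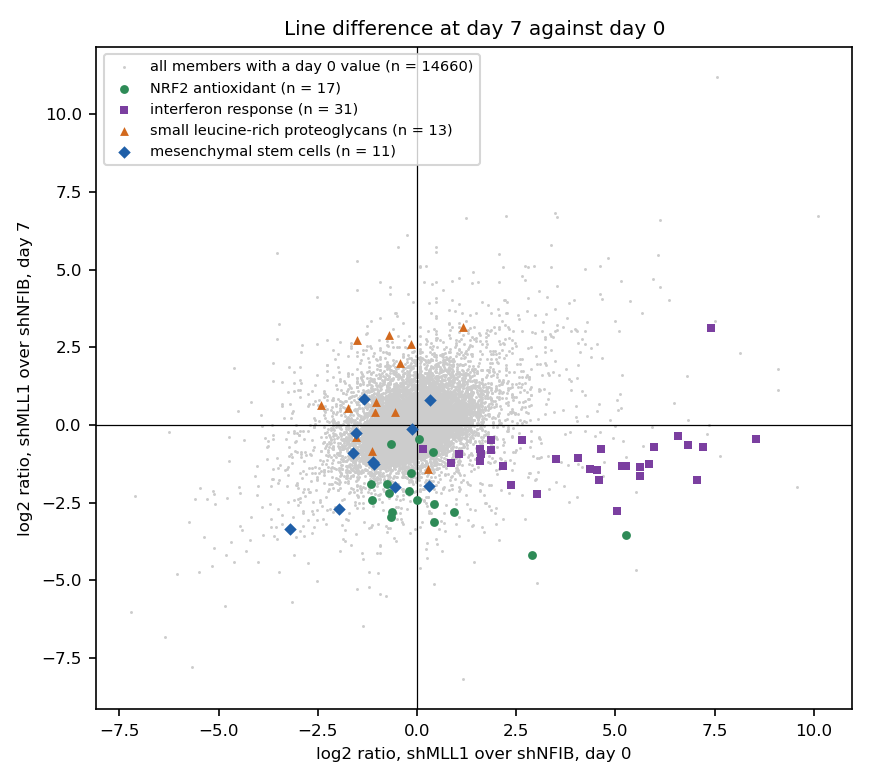
The log2 ratio of shMLL1 over shNFIB at day 0 (x axis) is plotted against that at day 7 (y axis) for 14660 members with a day 0 value, with 4 gene lists in colour. The interferon genes lie to the right and below, high in shMLL1 at day 0 and lower there at day 7, while the NRF2 genes lie below the day 7 line around 0 at day 0, and the mesenchymal markers lie mostly lower left.

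Of the 39 gene lists examined, NRF2 antioxidant genes had the largest share of members past 2-fold on one side. The background of every list is the share over all genes compared, 11.6% lower in shNFIB and 8.70% lower in shMLL1. NRF2 is a transcription factor that oxidants and electrophiles release from KEAP1, and it switches on enzymes of glutathione and NADPH supply. Of 17 NRF2 target genes measured, 14 were past 2-fold lower in shMLL1 and none lower in shNFIB, with a median log2 ratio of -2.39 at day 7, where the median of all members was -0.04, and -0.15 at day 0. Hmox1, haem oxygenase 1, was at 79.2 CPM in shMLL1, 684 CPM in shNFIB and 192 CPM in shControl, an 8.64-fold difference (8.24 to 9.05). Gclc and Gclm, the 2 subunits of the enzyme that starts glutathione synthesis, were at 86.5 and 14.5 CPM in shMLL1, 665 and 84.6 in shNFIB and 100.3 and 52.2 in shControl. Slc7a11, the cystine importer, was at 9.30, 64.3 and 11.7 CPM in that order. These genes spread both ways from control, with 7 of the 14 lost in shMLL1 alone, 3 (Gclc, Slc7a11 and Nqo1) gained in shNFIB alone and 4 both.

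Further enzymes of the list behaved alike. Txnrd1, thioredoxin reductase 1, was at 85.4 CPM in shMLL1, 455 CPM in shNFIB and 191 CPM in shControl, a 5.32-fold difference (5.08 to 5.57). G6pdx, which supplies NADPH from glucose, was at 129.9, 596 and 297 CPM, a 4.59-fold difference (4.42 to 4.77), and Srxn1, sulfiredoxin, at 28.7, 124 and 70.3 CPM, a 4.31-fold difference (3.98 to 4.68). Me1, the malic enzyme, which is another source of NADPH, was at 27.8, 146 and 90.3 CPM. Gsta1 had 2 counts in shMLL1 and 44 in shNFIB, an 18.2-fold difference (4.74 to 155), and Gsta2 2 and 28, an 11.6-fold difference (2.91 to 100.1), and reads of these paralogs may be split between them. The 3 members not past 2-fold, Prdx1, Gstm2 and Cbr1, had log2 ratios of -0.87, -0.62 and -0.45, below 0 as well.

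The antioxidant response core TGACNNNGC, searched on both strands in windows of 250 bases before to 50 after the start of each gene (RefSeq, GRCm38.p6), stood in at least 1 promoter of 14% of 27025 genes and of 6 of the 13 NRF2 genes with a promoter (46.2%). Of the genes with a promoter, it stood in 18.3% of 893 lower in shMLL1, 13.9% of 923 lower in shNFIB and 16.9% of 8447 not past 2-fold. The core was chosen after the values had been seen. The 60 bases around each match in the 6 genes are printed to show what they share, read 5′ to 3′ on the strand of the gene, with the match in capitals, and a match is a description of the letters and not a site.
Srxn1 (chr2:152105514-152105573, plus strand): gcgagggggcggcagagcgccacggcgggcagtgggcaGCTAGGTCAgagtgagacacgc
Gclm (chr3:122245397-122245456, plus strand): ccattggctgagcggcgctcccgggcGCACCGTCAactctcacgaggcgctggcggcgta
Prdx1 (chr4:116685440-116685499, plus strand): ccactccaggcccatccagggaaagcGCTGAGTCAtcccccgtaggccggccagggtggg
Txnrd1 (chr10:82859088-82859147, plus strand): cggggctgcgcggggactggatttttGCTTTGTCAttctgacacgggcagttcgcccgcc
G6pdx (chrX:74428904-74428963, minus strand): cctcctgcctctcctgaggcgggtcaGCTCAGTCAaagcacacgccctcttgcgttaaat
Me1 (chr9:86695887-86695946, minus strand): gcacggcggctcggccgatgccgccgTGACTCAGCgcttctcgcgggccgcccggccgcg
Prdx1 holds the core and was not past 2-fold, at 1178 CPM in shMLL1 and 2148 CPM in shNFIB, and Nqo1 and Slc7a11 were past 2-fold lower in shMLL1 without these letters in their windows.

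The interferon response turned between the days. Interferons signal through JAK kinases to transcription factors that induce antiviral genes. At day 7, 17 of 31 interferon response genes were past 2-fold lower in shMLL1 and 1 was lower in shNFIB, with a median log2 ratio of -1.08, and at day 0 the median was 4.53, that is far higher in shMLL1. Ifit1, which binds foreign RNA, was at 16.5 CPM in shNFIB, 399 CPM in shMLL1 and 171 CPM in shControl at day 0, and at 330.0, 96.0 and 76.6 CPM at day 7. Irf7, the transcription factor that amplifies interferon genes, was at 2.82, 101 and 17.5 CPM at day 0 and 59.6, 23.8 and 28.9 CPM at day 7 in the same order. For both genes shNFIB was the lowest of the 3 libraries at day 0 and the highest at day 7.

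At day 7 the control was close to shMLL1 for most of them, and 13 of the 17 were gained in shNFIB alone, while for the other 4 the control lay between the lines. Zbp1, a sensor of nucleic acids, was at 46.1 CPM in shNFIB, 6.72 CPM in shMLL1 and 6.92 CPM in shControl, a 6.86-fold difference (5.83 to 8.12). Bst2, tetherin, was at 177, 71.8 and 90.0 CPM, with the control between the lines. Rsad2, viperin, was the exception, at 0.440 CPM in shNFIB, 3.85 CPM in shMLL1 and 0.0328 CPM in shControl, an 8.76-fold difference (4.88 to 17.1) lower in shNFIB. With the libraries scaled by total count alone, 13 of the 31 were past 2-fold lower in shMLL1.

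The interferon-stimulated repeat GAAANNGAAA, likewise chosen after the values had been seen and searched on both strands, stood in promoters of 13 of 23 interferon genes (56.5%) against 3.99% of the 27025 genes. Of the genes with a promoter, it stood in 6.49% of 893 lower in shMLL1, 2.71% of 923 lower in shNFIB and 3.62% of 8447 not past 2-fold. The windows of 7 of the 13 are printed to show the repeat in genes of both directions, with every match in capitals.
Ifit3 (chr19:34583365-34583424, plus strand): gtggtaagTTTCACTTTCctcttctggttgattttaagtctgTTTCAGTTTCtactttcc
Ifit3b (chr19:34607761-34607820, plus strand): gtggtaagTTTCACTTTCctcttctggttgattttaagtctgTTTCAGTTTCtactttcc
Ifit1 (chr19:34640769-34640828, plus strand): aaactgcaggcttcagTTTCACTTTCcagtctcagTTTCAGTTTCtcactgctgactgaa
Bst2 (chr8:71537565-71537624, minus strand): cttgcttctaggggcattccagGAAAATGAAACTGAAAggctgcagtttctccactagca
Gbp3 (chr3:142559977-142560036, plus strand): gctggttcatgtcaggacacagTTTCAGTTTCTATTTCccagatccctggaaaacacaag
Ifih1 (chr2:62646206-62646265, minus strand): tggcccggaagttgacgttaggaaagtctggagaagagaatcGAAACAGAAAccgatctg
Rsad2 (chr12:26456538-26456597, minus strand): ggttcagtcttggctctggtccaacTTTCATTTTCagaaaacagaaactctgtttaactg
The windows of Ifit3 and Ifit3b are identical at 100% of positions, and these neighbouring copies are counted with that uncertainty. Rsad2 carries the repeat although its ratio ran the other way.

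Chemokines and antigen presentation genes leaned the same way at day 7. Of 19 chemokines and cytokines 10 were past 2-fold lower in shMLL1 and 3 lower in shNFIB (median log2 ratio -1.23), and Cxcl1, Cxcl5, Ccl2, Cxcl16 and Cxcl12 were lost in shMLL1 alone. Ccl2, which attracts monocytes, was at 33.2 CPM in shMLL1, 218 CPM in shNFIB and 151 CPM in shControl, a 6.56-fold difference (6.09 to 7.06). Il6, an inflammatory cytokine, was at 0.164, 1.49 and 0.394 CPM, a 9.08-fold difference (3.31 to 34.8), and Cxcl1, which attracts neutrophils, at 20.4, 189.8 and 116 CPM. Il18 and Ccl9 were the losses in shNFIB alone, with Il18 at 0.203 CPM there against 5.04 in shMLL1 and 5.02 in shControl. Of 11 antigen presentation genes, B2m, H2-K1 and Erap1 were past 2-fold lower in shMLL1, with B2m, the light chain of MHC class I, at 676, 2136 and 1062 CPM in shMLL1, shNFIB and shControl.

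Glycolysis and hypoxia genes were lower in shMLL1 at day 7 in 10 of 21 cases and lower in shNFIB in 1, with a median log2 ratio of -0.91 at day 7 and 0.94 at day 0. Slc2a1, the glucose transporter GLUT1, was at 19.7 CPM in shMLL1, 101 CPM in shNFIB and 35.7 CPM in shControl, a 5.14-fold difference (4.67 to 5.68). Hk2, hexokinase 2, was at 17.9, 64.5 and 21.3 CPM, and Pkm, pyruvate kinase, at 297, 864 and 469.5 CPM. Slc2a1 and Hk2 were gained in shNFIB alone, and for 6 others, Pkm, Gapdh, Aldoa, Pfkp, P4ha2 and Pgam1, the control lay between the lines. No member of the list was lost in shMLL1 alone. With scaling by total count alone, 5 of the 21 were past 2-fold lower in shMLL1 and 2 lower in shNFIB. Car9, a carbonic anhydrase of hypoxic cells, was the member lower in shNFIB, at 3.48 CPM against 10.00 in shMLL1 and 3.81 in shControl.

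**Figure D5:**
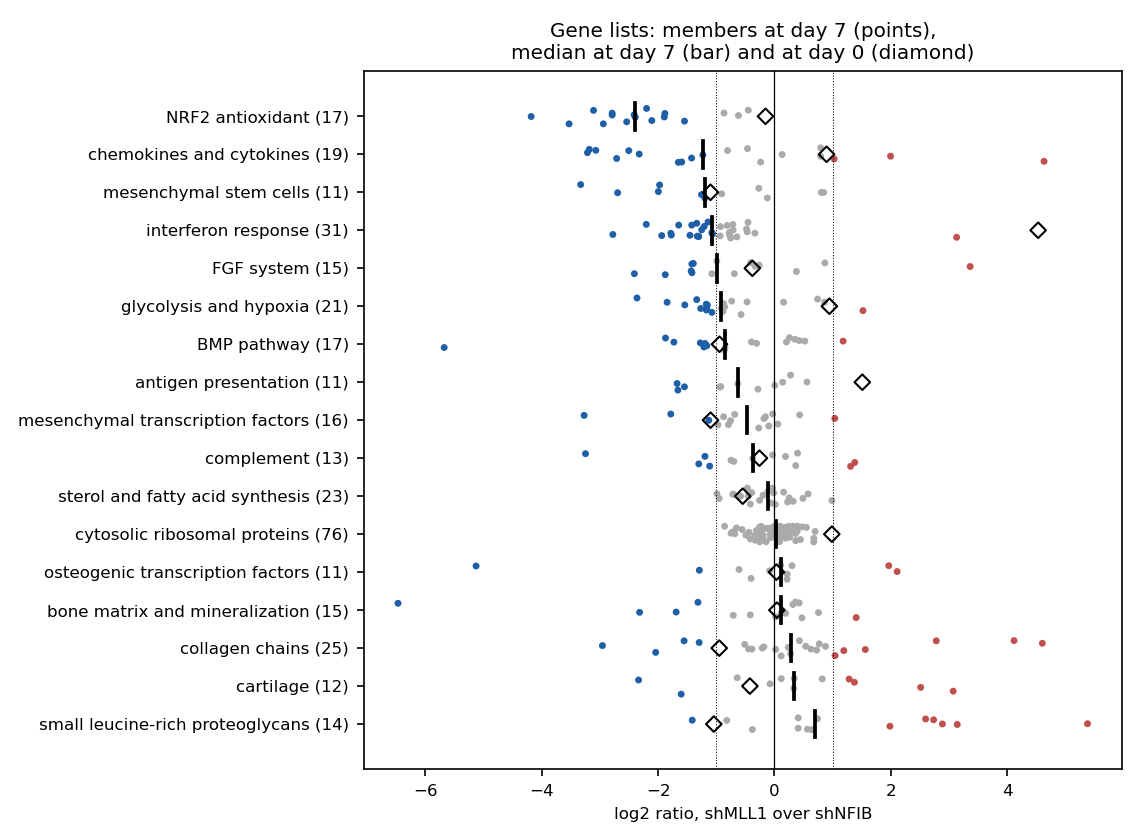
Points give the log2 ratio of shMLL1 over shNFIB at day 7 for the members of 17 gene lists, in blue where past 2-fold lower in shMLL1 and in red where lower in shNFIB, with the list median at day 7 as a bar and at day 0 as a diamond. The NRF2 median lies furthest to the left, the ribosomal protein genes stay within 2-fold, and the diamonds of the interferon, chemokine, glycolysis and antigen presentation lists lie on the other side of 0 from their bars.

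Of 17 BMP pathway genes 7 were past 2-fold lower in shMLL1 and 1 lower in shNFIB (median log2 ratio -0.85). Smad6, Smad7 and Smad9, of which the first 2 inhibit BMP and TGF-β receptors, were lost in shMLL1 alone, with Smad6 at 7.01 CPM in shMLL1, 25.7 CPM in shNFIB and 17.7 CPM in shControl, a 3.66-fold difference (3.10 to 4.35). Id2 and Id3, targets of BMP signalling, were at log2 ratios of -1.27 and -1.16, with the control between the lines. With scaling by total count alone 4 of the 17 were past 2-fold lower in shMLL1, and Smad7, Id3 and Bmpr2 no longer were.

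Of 15 FGF system genes 6 were past 2-fold lower in shMLL1 and 1 lower in shNFIB. Spry1, a feedback inhibitor of receptor tyrosine kinases, was lost in shMLL1 alone, at 4.30 CPM against 11.6 in shNFIB and 19.4 in shControl. Etv5, a transcription factor induced by FGF signalling, was gained in shNFIB, at 18.7 CPM against 3.52 and 5.31. Fgfr2, the receptor that drives osteoblast growth, went the other way and was below control in both lines, at 1.29 CPM in shNFIB, 13.2 in shMLL1 and 35.6 in shControl, a 10.3-fold difference (7.34 to 14.8). Of 10 IGF system genes 1 was lower in each line, beside backgrounds of 11.6% and 8.70%. Igfbp3 was lower in shNFIB, with 2 counts against 50 in shMLL1 and 235 in shControl, a 30.3-fold difference (7.96 to 257). Igfbp4 was lower in shMLL1 at 78.9 CPM against 164 and 109, though not past 2-fold with library size alone (log2 ratio of -0.84). Of 8 Wnt inhibitors 3 were lower in shNFIB, among them Sfrp2, a secreted Wnt antagonist, with 0 counts against 29 in shMLL1 and 133 in shControl, at least 11.7-fold lower than in shMLL1.

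Markers of mesenchymal cells were lower in shMLL1 or not past 2-fold. Of the 11 measured, 6 were past 2-fold lower in shMLL1 and none lower in shNFIB, with medians of -1.20 at day 7 and -1.10 at day 0. Thy1 (CD90) was at 16.9 CPM in shMLL1, 169.9 CPM in shNFIB and 27.9 CPM in shControl, a 10.1-fold difference (9.10 to 11.2), and Alcam (CD166) at 10.7, 69.3 and 11 CPM. Cd44, the hyaluronan receptor, was at 16.9, 67.4 and 32.2 CPM, and Vcam1 at 148, 354 and 173 CPM. Thy1, Alcam, Cd44, Ly6a and Vcam1 were gained in shNFIB alone, so shMLL1 stood within 2-fold of control for them. Under scaling by total count alone 5 of the 11 were past 2-fold lower in shMLL1 and 2 lower in shNFIB.

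Small leucine-rich proteoglycans bind collagen fibrils and growth factors. Of 14 members 6 were past 2-fold lower in shNFIB and 1, Nyx, lower in shMLL1, and the median log2 ratio was 0.69 at day 7 and -1.04 at day 0. Lum, lumican, was at 17.5 CPM in shNFIB, 154 CPM in shMLL1 and 16.5 CPM in shControl, an 8.83-fold difference (8.05 to 9.70). Dcn, decorin, was at 266, 1052 and 55.8 CPM, and Fmod, fibromodulin, at 0.203, 1.23 and 0.426 CPM. Epyc, epiphycan, was at 1.08, 7.21 and 0.492 CPM. Kera, Lum and Podn were gained in shMLL1 alone, Dcn and Epyc were above control in both lines, and only Fmod of these 6 was over 2-fold below control in shNFIB.

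Collagens and proteases were divided. Of 25 collagen chains 6 were past 2-fold lower in shNFIB and 4 lower in shMLL1. Col15a1 and Col27a1 were lost in shNFIB alone, with Col15a1, a basement membrane chain, at 18.5 CPM against 38.1 in shMLL1 and 56.0 in shControl. Col8a2 was at 7.01 CPM in shMLL1, 54.4 CPM in shNFIB and 27.0 CPM in shControl, a 7.77-fold difference (6.63 to 9.15), below control in the one and above it in the other. Col1a1, the main chain of bone collagen, had a log2 ratio of 0.11. Of 26 matrix proteases and inhibitors 5 were lower in each line, with ADAMTS proteases on one side and Mmp13, Mmp3, Mmp16, Timp2 and Timp3 on the other. Mmp13, the collagenase of hypertrophic cartilage and bone, was at 0.615 CPM in shMLL1, 15.5 CPM in shNFIB and 0.426 CPM in shControl at day 7, a 25.2-fold difference (15.1 to 45.3), and at 4.37 CPM in shMLL1 with 0 counts in shNFIB at day 0. Adamts15 was below control in both lines, at 0.237 CPM in shNFIB, 7.50 in shMLL1 and 20.8 in shControl. Under scaling by total count alone 7 of the 26 were lower in shNFIB and 2 lower in shMLL1.

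Cartilage genes gave 3 losses in shNFIB alone among 12 members, of which 4 were past 2-fold lower in shNFIB and 2 in shMLL1. Comp, cartilage oligomeric matrix protein, was at 5.07 CPM in shNFIB, 13.2 CPM in shMLL1 and 25.2 CPM in shControl, a 2.59-fold difference (2.13 to 3.17). Sox6, a partner of SOX9, was at 0.609, 5.12 and 2.59 CPM, and Cnmd, chondromodulin, at 0.237, 1.35 and 1.61 CPM. Prg4, lubricin, was gained in shNFIB at 85.3 CPM against 16.9 and 11. Of 12 smooth muscle genes 3 were lower in shNFIB and 1 in shMLL1, beside backgrounds of 11.6% and 8.70%. Mylk, myosin light chain kinase, was lost in shNFIB alone at 26 CPM against 105 in shMLL1 and 83.0 in shControl.

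For bone itself the 2 knockdowns parted at Alpl and Dlx5 more than at Runx2. Among 11 osteogenic transcription factors, Dlx5 and Tcf7 were past 2-fold lower in shNFIB and Fosl1 and Atf4 lower in shMLL1. These were 2 each way, beside backgrounds of 11.6% and 8.70%. Another 4 of the 15 factors on the list, and 5 of the 20 bone matrix and mineralization genes, were not among the genes compared. Dlx5 was at 3.69 CPM in shNFIB, 15.9 CPM in shMLL1 and 52.5 CPM in shControl, a 4.31-fold difference (3.48 to 5.38), below control in both lines. Tcf7, which acts in Wnt signalling, was at 0.304, 1.19 and 1.34 CPM and lost in shNFIB alone. Runx2 differed by a log2 ratio of 0.22 and was below control in both lines. Of 15 bone matrix and mineralization genes Alpl, Phospho1, Pth1r and Mgp were lower in shMLL1 and Ifitm5 lower in shNFIB. Mgp, an inhibitor of calcification, was at 569 CPM in shMLL1, 1415 CPM in shNFIB and 1624 CPM in shControl, and Phospho1, a phosphatase of matrix vesicles, at 1.97, 9.81 and 4.69 CPM. Spp1, osteopontin, did not pass 2-fold between the lines, at 303 and 226 CPM against 1381 in shControl.

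Among 16 mesenchymal transcription factors Six2, Foxc2 and Foxc1 were past 2-fold lower in shMLL1 and Osr2 lower in shNFIB. Six2, which keeps progenitors undifferentiated, was at 2.05 CPM in shMLL1, 19.8 CPM in shNFIB and 17.1 CPM in shControl, a 9.66-fold difference (7.23 to 13.2), and Foxc2 at 3.20, 11 and 12.3 CPM. Both were lost in shMLL1 alone, and with library size alone Foxc1 was not past 2-fold (log2 ratio of -0.91). Hox genes, the best-known targets of MLL1, were mostly too low to compare, with 9 of 39 members. Hoxa9 alone was past 2-fold, lower in shNFIB at 1.25 CPM against 3.65 in shMLL1 and 2.16 in shControl.

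Of 13 adipogenic transcription factors 2, Pparg and Klf4, were past 2-fold lower in shMLL1, 1, Klf15, was lower in shNFIB and 10 were not past 2-fold, beside backgrounds of 8.70% and 11.6%. Pparg, the master regulator of fat cells, was at 20.9 CPM in shMLL1, 84.2 CPM in shNFIB and 42.0 CPM in shControl, a 4.04-fold difference (3.67 to 4.45), and Klf4, a regulator of early fat and stem cell genes, at 31.9, 151 and 30.2 CPM. Klf15, which glucocorticoids induce, was lost in shNFIB alone, at 3.48 CPM against 18.3 in shMLL1 and 10.2 in shControl. Of 16 fat cell lipid and hormone genes Cd36, Lpl, Plin2 and Agpat2 were past 2-fold lower in shMLL1 and Cfd and Plin1 lower in shNFIB. Cfd, adipsin, was far below control in both lines, at 0.744 CPM in shNFIB and 1.84 CPM in shMLL1 against 69.8 CPM, and Lpl, lipoprotein lipase, at 0.744 and 0.164 CPM against 35.6. None of 23 sterol and fatty acid synthesis genes was past 2-fold.

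Dexamethasone, the inducer of the glucocorticoid response genes, was in the medium of both libraries. Of 16 such genes 2, Tsc22d3 and Errfi1, were past 2-fold lower in shNFIB, and 3, Dusp1, Mt2 and Pdk4, lower in shMLL1. The other 11 were not past 2-fold, beside backgrounds of 11.6% and 8.70%. Tsc22d3, the glucocorticoid-induced leucine zipper, was at 411 CPM in shNFIB, 1181 CPM in shMLL1 and 428 CPM in shControl, and Pdk4, a brake on pyruvate oxidation, at 277, 127 and 172 CPM. With library size alone Mt2 (log2 ratio of -0.99) and Pdk4 (-0.91) were not past 2-fold. Of 13 complement genes 4 were lower in shMLL1 and 2 in shNFIB. C3, the central component, was lost in shMLL1 alone at 1054 CPM against 2281 in shNFIB and 2269.9 in shControl, though with library size alone it was not past 2-fold (-0.90) and 2 of the 13 were lower in shMLL1. Cd55, which protects cells from complement, was above control in both lines at 1.84 and 17.5 CPM against 0.197. Of 8 retinoid and aldehyde enzymes 2 were lower in shNFIB, among them Aldh1a7 at 255 CPM against 729 in shMLL1 and 187 in shControl.

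Genes of S phase and G2/M, of cytosolic ribosomal proteins and of Polycomb differed little between the lines at day 7. Of 42 S phase genes 3 were past 2-fold lower in shNFIB and 1 in shMLL1, and of 52 G2/M genes 3 and 1, shares below the backgrounds of 11.6% and 8.70%. Ccnd1 and Ccnd2, the D-type cyclins, were lower in shMLL1, at 82.0 and 74.1 CPM against 181 and 149.5 in shNFIB and 154 and 106 in shControl. With library size alone neither Ccnd1 (log2 ratio of -0.93) nor Ccnd2 (-0.80) was past 2-fold, and with DESeq2's size factors Ccnd2 was not (-0.98). None of 76 cytosolic ribosomal protein genes was past 2-fold at day 7, with medians of 0.03 at day 7 and 0.99 at day 0, and none of 19 Polycomb genes was. Of 18 genes of the MLL complexes Kmt2a and Wdr5 were past 2-fold lower in shMLL1, with Wdr5 at 32.9 CPM against 66.0 in shNFIB and 37.1 in shControl, but Wdr5 was not past 2-fold with DESeq2's size factors (log2 ratio of -0.97) or library size alone (-0.79). Of 11 mitochondrial transcripts 1 was lower in each line.

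Noncoding transcripts made up a large part of the genes lower in shNFIB. Protein-coding genes were 1029 of the 1727 (59.6%), against 1117 of the 1293 lower in shMLL1 (86.4%) and 85.3% of the genes not past 2-fold. Of 408 lincRNA members 121 were past 2-fold lower in shNFIB and 42 lower in shMLL1, of 519 antisense members 172 and 17, of 269 processed transcripts 76 and 9, and of 327 genes of the provisional annotation class TEC 143 and 10. Their median log2 ratios were 0.53, 0.64, 0.55 and 0.90 in that order. LincRNA took 0.752% of all counts in shNFIB, 1.16% in shMLL1 and 1.20% in shControl at day 7, and antisense genes 0.245%, 0.455% and 0.334%. The deposited counts do not show whether strand was used in counting, so the reads of an antisense gene and its partner cannot be told apart here, and 36.8% of the genes lower in shNFIB and 30.5% of those lower in shMLL1 overlapped another gene, against 37.3% of all members. By chromosome the median log2 ratio ran from -0.20 on chromosome 13 to 0.12 on chromosome 7. From the quintile of the shortest genes to that of the longest the median at day 0 went from 0.24 to -0.53, while at day 7 it was 0.05 in the shortest, -0.12 in the longest and lowest, at -0.16, in the quintile before the longest, and the part of gene length in the differences was not tested.

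The single NFI motif, TTGGC on either strand, was searched only in genes with a promoter. It stood in 56.2% of 923 such genes lower in shNFIB, 53.3% of 893 lower in shMLL1 and 55.3% of 8447 not past 2-fold. The share was 50.4% over all 27025 genes with a promoter. The full palindrome, the motif followed by 5 free bases and its inverted copy, stood in promoters of 12 of these genes (0.0444%). Among the 10263 members with a promoter it was present in Gstm7 and Prr33, both lower in shNFIB. It was also in Fam160a1 and Galt, which were not past 2-fold, and in none lower in shMLL1. Gstm7, a glutathione transferase, had 0 counts in shNFIB, 54 in shMLL1 and 109 in shControl, at least 21.8-fold lower in shNFIB than in shMLL1, and Prr33 was at 0.778, 2.79 and 3.18 CPM. Both were lost in shNFIB alone. Both genes were named after their values had been seen.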

How the data were processed

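RNA of C3H10T1/2 cells was sequenced in 6 conditions with 1 library each. The authors used Trimmomatic 0.39 for trimming, HISAT2 2.2.1 for alignment to GRCm38 (mm10) and SAMtools 1.12 for filtering, dropped PCR duplicates, and obtained counts for each Ensembl gene from HTSeq 0.11.1 (htseq-count). The deposited values are these raw counts. The annotation release and strand setting of the counting are not given in the sources used here. All 6 columns were matched to samples and 0 were left unmapped, and 0 entries named no gene. Gene types, positions and overlaps came from GENCODE on GRCm38, in which 55141 of 55401 genes had an entry.

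TMM factors were computed over the 6 libraries with edgeR 4.0.16 under R 4.3.3. The 2 day 7 knockdown libraries were compared by the ratio of scaled counts with exact Clopper-Pearson 95% intervals (Python 3.11.15, scipy 1.17.1), with a count of 0 set to 3 counts and no ratio where both counts were 3 or fewer. The line difference over both days was tested with edgeR's quasi-likelihood method, with line and day as terms, on genes kept by filterByExpr, at a false discovery rate of 5%, and DESeq2 1.42.0 was run beside it. Further alternatives were other scalings, count minimums, folds, an exact test at assumed spreads, gene types and libraries left out. One, leaving out genes that overlap another gene, was chosen after seeing the data. The steps were tested on simulated data.

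The genes named were Nfib and Kmt2a, genes on the lists described, and in each direction the 15 protein-coding genes with the largest ratio among those with at least 200 counts in the higher and 10 in the lower library, the 5 with the highest count among those with at most 3 in the lower library, the 5 with the highest CPM past 2-fold and the 5 with the smallest p over both days. Predicted genes and genes of chromosomes Y and M were counted but not named unless on a list. The members, lists and tests were chosen with earlier results of these data known, so no list is independent evidence. A few list members are left unnamed here.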

Additional observations from a re-analysis of the deposited data

Results flagged for a closer look

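The difference between the lines had opposite signs at day 7 and day 0 for several groups and genes. Each is 1 library against 1 at each day, and whether the difference itself differs between the days was not tested. Median log2 ratios of shMLL1 over shNFIB were -1.08 at day 7 and 4.53 at day 0 for the interferon response, -0.63 and 1.51 for antigen presentation, -1.23 and 0.90 for chemokines and cytokines, -0.91 and 0.94 for glycolysis and hypoxia, and 0.69 and -1.04 for the small leucine-rich proteoglycans. Among single genes the 2 values were 2.40 and -2.10 for Sned1, 1.28 and -1.71 for Adamts1, -4.65 and 5.52 for Mmp13, -4.41 and 1.44 for Chac1, and -3.69 and 2.08 for Phf11b. The day 0 value of Mmp13 sets the 0 counts of shNFIB to the floor of 3 counts and is a bound.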

How the results depend on the processing

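No paired analysis was possible because the replicate number is 1 in every condition; the day was a term of the fit over both days instead. The numbers of genes past 2-fold at day 7, 1727 lower in shNFIB and 1293 lower in shMLL1, stayed within 1.5 times of these values under DESeq2's size factors (1815 and 1196), TMM over the 2 libraries, shNFIB thinned to the depth of shMLL1, no condition on the interval and a prior count of 2. Lower in shNFIB they became 1074 with a minimum of 50 counts, 1029 for protein-coding genes alone, 2717 with at least 1 count, 1091 without genes that overlap another gene, and 501 with a fold of 4. Lower in shMLL1 they became 852 with library size alone and 309 with a fold of 4. The edgeR exact test with assumed biological coefficients of variation of 0.2 and 0.4 called 936 and 90 genes lower in shNFIB and 818 and 69 lower in shMLL1, so the number of calls rests on a spread that these libraries cannot give. Genes lost in shNFIB alone were 412 with a minimum of 50 counts, 424 for protein-coding genes, 430 without overlapping genes and 175 with a fold of 4, and genes lost in shMLL1 alone were 51 with a fold of 4. The share past 2-fold the same way at day 0 was 25.0% with DESeq2's size factors and 25.5% without overlapping genes for genes lower in shNFIB, and 32.4% with DESeq2's size factors and 28.5% with a fold of 4 for genes lower in shMLL1.

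Over both days, the quasi-likelihood calls of 39 lower in shNFIB and 50 lower in shMLL1 became 394 and 703 with all genes that had a count, 0 and 0 without the day term (726 genes at an unadjusted p under 0.05), and 443 and 705 by DESeq2. They were 68 lower in shNFIB with the 4 knockdown libraries alone and 28 lower in shMLL1 with library size alone. Leaving out 1 knockdown library at a time gave 49 to 832 lower in shNFIB and 63 to 796 lower in shMLL1, the highest without shMLL1 at day 7; the lone library of that line was then assumed to vary like the others, and the cause was not tested. Of 668 values of named genes and list members, 90 moved by more than their counting interval with DESeq2's size factors, 433 with library size alone and 0 with a prior count of 2, and 0 of those past 2-fold changed sign. Depth limits the genes near 20 counts, whose intervals are widest.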
